A study of Mus musculus with 6 samples.

Results

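The cyclic nucleotide phosphodiesterases are the enzymes that break down the second messengers cAMP and cGMP, and 10 of their genes were followed here in the mouse heart, namely Pde1c, Pde2a, Pde3a, Pde3b, Pde4a, Pde4b, Pde4d, Pde5a, Pde7a and Pde8a. They were chosen by gene name from a table of 16018 genes, with the KO against WT differences of these same libraries, which also served to select them, already known. All 10 were in the table. Each member's difference between genotypes is therefore given as a description, with its standard error and no p-value, and counts of members past a threshold are given only beside the share of all genes past it. The data were RNAseq of hearts from 3 NBCe1-B/C KO mice (KO) and 3 WT mice, all female and between 4 and 5 weeks of age. NBCe1-B and NBCe1-C are variants of the Slc4a4 gene product, an electrogenic sodium bicarbonate cotransporter that carries base into cells. The knockout was congenital and affected the whole animal, so it was not limited to the heart, and it left the variant NBCe1-A intact. It was carried on a C57BL/6J background, and both genotypes came from crosses of heterozygous parents.

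In heart muscle, beta-adrenergic receptors and adenylyl cyclases raise cAMP, which activates protein kinase A and with it calcium entry, sarcoplasmic reticulum calcium release and calcium reuptake. Phosphodiesterases end the signal and keep it local, because different isoforms are tethered to different protein complexes. The PDE4, PDE7 and PDE8 enzymes are specific for cAMP and PDE5 is specific for cGMP, whereas PDE1, PDE2 and PDE3 degrade both. Calcium and calmodulin activate PDE1, cGMP activates PDE2, and cGMP inhibits PDE3, so the pathways of both messengers meet at these enzymes.

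The values are normalized counts, that is, reads on a gene divided by the library's own size factor, a median of ratios over genes that does not make the library totals equal. The reads on genes ranged from 42619258 to 49100802 in the KO libraries and from 41364857 to 42037397 in the WT libraries. The targeted gene, Slc4a4, had normalized counts of 675.1, 822.2 and 788.8 in the WT hearts. The libraries labelled KO replicates 1 and 3 were at 264 and 268.7, but the one labelled KO replicate 2 was at 944.8, or 1.24 times the WT mean, and the log2 fold change (KO against WT) was -0.90 with all libraries (exact two-sided permutation p = 0.4, where 0.1 is the smallest p that 3 against 3 allow) and -1.51 without that library. Counts over the whole gene do not separate its variants. Results for the phosphodiesterases are given with and without KO replicate 2.

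Transcripts of 4 phosphodiesterases, Pde3a, Pde4d, Pde2a and Pde4a, were higher in all 3 KO hearts than in any WT heart, by 1.48, 1.43, 1.36 and 1.23 times. Such a separation, with KO above WT, was found for 15.6% of all genes. For the other 6 genes, Pde1c, Pde3b, Pde4b, Pde5a, Pde7a and Pde8a, the KO and WT values overlapped. No gene among the 10 was lower in all KO hearts than in all WT hearts. These are whole hearts, in which a larger number of cells of a type and more RNA per cell cannot be told apart. The plot of normalized counts by library shows all 10 genes.

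**Figure D1:**
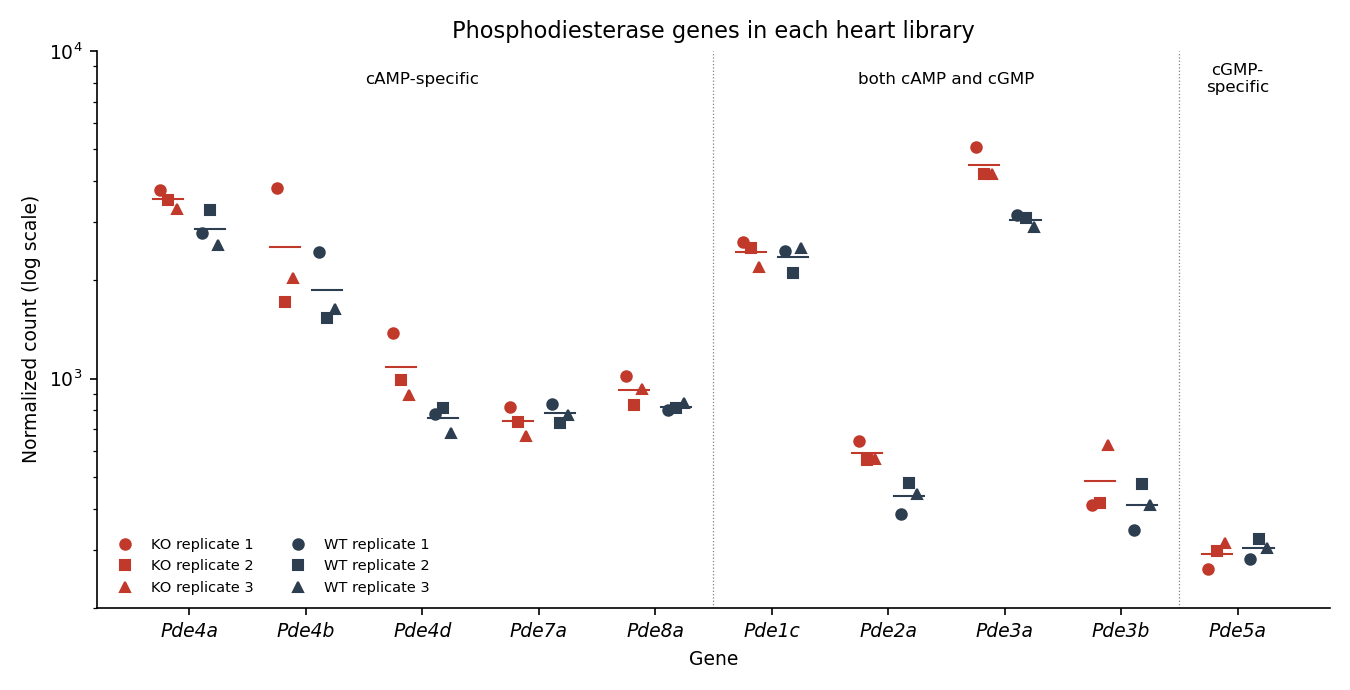
Normalized count (log scale) of each phosphodiesterase gene in each of the 6 heart libraries, with KO in red and WT in dark blue, a marker shape for each replicate number and a short line at each group mean. For Pde4a, Pde4d, Pde2a and Pde3a all red points lie above all blue points, whereas the points of the other 6 genes overlap; Pde4b has its highest point, 3813.0, in KO replicate 1.

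Several phosphodiesterase genes are known to respond to cAMP itself, through the cAMP response element to which the transcription factor CREB binds. Their promoters were therefore searched for the full element, TGACGTCA, and for its short form, TGACG, on both strands; the short form is contained in the full one. RefSeq start sites on GRCm38.p6 were available for 7 of the 10 genes (Pde1c, Pde2a, Pde4a, Pde4b, Pde4d, Pde5a and Pde8a), giving 18 windows of 300 bases, from 250 before to 50 after the start. The full element was in 0 of these 18 windows and in 1.79% of 32851 promoter windows of all genes. The short form was in 4 of the 18 (22.2%) and in 20.8% of all windows. These 4 stretches are shown because they are the matches in Pde2a, Pde4a, Pde4b and Pde8a. All are written 5′ to 3′ on the plus strand, on which these genes are also read, with the matching letters in capitals; CGTCA is the short form read on the opposite strand.
Pde4b: gatttggctgcaCGTCAattttctcatct
Pde8a: gctgctttgcatTGACGccagcagccgct
Pde2a: ggggcgcaggagCGTCAcggctgctgcaa
Pde4a: ggcacagctcgaCGTCAggctggggagga
They lie at chr4:102421509-102421537 for Pde4b, chr7:81213169-81213197 for Pde8a, chr7:101450522-101450550 for Pde2a and chr9:21184039-21184067 for Pde4a. A match describes these letters only. Of the 4 genes with a match, Pde2a and Pde4a were among those higher in all KO hearts, and Pde4b and Pde8a were not. For Pde4d, which was also higher in all KO hearts, only 1 window was available, although the gene has 12 annotated coding starts, and it held no match.

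Among the cAMP-specific enzymes, the PDE4 family carries much of the cAMP hydrolysis in rodent heart. Pde4a (ENSMUSG00000032177, chr9:21165714-21213248 on GRCm38, plus strand) encodes a family member with several start sites. Its normalized count was 3755.4, 3504.4 and 3298.2 in the KO hearts and 2774.1, 3259.9 and 2549.0 in the WT hearts, in the order of replicates 1, 2 and 3, which is kept throughout. The lowest KO heart was only slightly above the highest WT heart, WT replicate 2. The means were 3519 ± 229 and 2861 ± 363 (SD, n = 3 each), and the log2 fold change was 0.30 (standard error 0.10). It was 0.31 without KO replicate 2.

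Pde4b (ENSMUSG00000028525, chr4:102087543-102607259, plus strand) encodes a PDE4 enzyme of the L-type calcium channel complex. It had 3813.0, 1714.0 and 2023.8 normalized counts in the KO hearts, and 2432.0, 1535.3 and 1633.3 in the WT hearts. Replicate 1 of each genotype stood well above the other two, and WT replicate 1 exceeded both lower KO values. The within-group standard deviation of Pde4b on the log2 scale was higher than that of 91.3% of all genes, and the KO values varied by 45.0% (coefficient of variation) where counting error accounts for 2.13%. The log2 fold change was 0.37 (standard error 0.28). It was 0.60 without KO replicate 2 and 0.028 without KO replicate 1, so the size of this difference rested on KO replicate 1.

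Pde4d (ENSMUSG00000021699, chr13:108449948-109953461, plus strand) encodes the PDE4 enzyme found with the ryanodine receptor and with phospholamban. Its values were 1375.5, 993.4 and 893.1 normalized counts in the KO hearts and 782.7, 813.9 and 683.7 in the WT hearts. The KO values were all above the WT values, with KO replicate 1 again the highest and KO replicate 3 close to WT replicate 2. The means were 1087 ± 255 and 760.1 ± 68.0 (SD, n = 3 each), and the log2 fold change was 0.50 (standard error 0.15). Without KO replicate 1 it was 0.31, and without KO replicate 2 it was 0.55.

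Pde7a (ENSMUSG00000069094, chr3:19223108-19311322, minus strand) encodes a high-affinity cAMP phosphodiesterase that rolipram, the PDE4 inhibitor, does not block. Normalized counts were 819.8, 739.1 and 666.9 in the KO hearts and 839.0, 734.9 and 776.5 in the WT hearts. The groups overlapped, although KO replicate 3 was below every WT heart and WT replicate 1 above every KO heart, and the log2 fold change was -0.081 (standard error 0.10). Pde8a (ENSMUSG00000025584, chr7:81213596-81334533, plus strand), which encodes the cAMP phosphodiesterase with the highest affinity for its substrate, had 1017.3, 830.1 and 927.6 normalized counts in the KO hearts and 804.2, 813.9 and 842.4 in the WT hearts. KO replicate 2 was below WT replicate 3, whereas the other KO hearts were above all WT hearts. The log2 fold change of Pde8a was 0.17 (standard error 0.090), 0.24 without KO replicate 2 and 0.098 without KO replicate 1.

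Among the enzymes that degrade both messengers, Pde3a had the highest log2 fold change with all libraries and no correction, also among all 10 genes. With the correction for length and GC content described further on, Pde3a was at 0.31, lower than Pde4d, Pde2a and Pde4b, and without KO replicate 3 Pde4d (0.62) was above Pde3a (0.60). Pde3a (ENSMUSG00000041741, chr6:141249269-141507448, plus strand) encodes the main PDE3 of cardiac muscle, the target of milrinone, which acts on calcium reuptake near SERCA2 and phospholamban. Its normalized count was 5098.2, 4196.0 and 4201.0 in the KO hearts, and 3147.0, 3093.6 and 2903.7 in the WT hearts. The lowest KO heart was far above the highest WT heart, and the WT hearts differed little from each other. The means were 4498 ± 519 and 3048 ± 128 (SD, n = 3 each), the log2 fold change was 0.56 (standard error 0.087), and it stayed between 0.46 and 0.60 when each library was left out in turn.

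Pde3b (ENSMUSG00000030671, chr7:114415281-114539251, plus strand) encodes the PDE3 through which insulin restrains fat breakdown in adipocytes, and which is also present in heart. It had 411.9, 417.6 and 628.8 normalized counts in the KO hearts and 346.3, 476.1 and 411.4 in the WT hearts. KO replicate 3 was the highest and WT replicate 2 the next, and the remaining values lay together. The log2 fold change was 0.22 (standard error 0.18), and 0.024 without KO replicate 3. Fat gene transcripts were also uneven between these libraries. The adiponectin gene Adipoq had 15.9, 248.1 and 569.4 normalized counts in the KO hearts and 203.9, 532.2 and 284.6 in the WT hearts, with its highest values in the same 2 libraries. Of 7 adipocyte markers 6 were measured, none at 0 in any library, and their summed normalized counts ranged from 17622 to 27904 in KO and from 25906 to 30121 in WT. Most of this sum was Fabp4, from 16599.7 to 21489.6 in KO and from 22798.7 to 24900.7 in WT. The sum therefore hides wider differences in other markers. Plin1 had 26.8, 321.5 and 1001.3 in KO and 285.8, 686.1 and 349.6 in WT. Ucp1 ranged from 17.9 to 2947.9 over the libraries, and Cidea only from 939.9 to 1911.2. The part of adipose tissue in the Pde3b values was not tested.

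Pde2a (ENSMUSG00000110195, chr7:101421691-101512827, plus strand) encodes the cGMP-stimulated phosphodiesterase, through which a rise in cGMP lowers cAMP. Its normalized counts were 647.1, 563.4 and 567.6 in the KO hearts and 385.2, 481.3 and 445.5 in the WT hearts. All KO hearts were above all WT hearts, with a clear gap between the lowest KO and the highest WT value. The means were 592.7 ± 47.2 and 437.3 ± 48.6 (SD, n = 3 each), the log2 fold change was 0.44 (standard error 0.11), and it was 0.48 without KO replicate 2. Endothelial cells also express Pde2a. All 8 endothelial markers were measured, none at 0, with summed normalized counts from 47989 to 51528 in KO and from 47266 to 48172 in WT. Within this sum, Cdh5 (log2 fold change 0.25) and Tek (0.22) were higher in all KO hearts. Egfl7 (-0.44) was lower in all of them, and the other endothelial markers overlapped. The part of endothelial cells in the Pde2a difference was not tested.

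Pde1c (ENSMUSG00000004347, chr6:56069804-56569103, minus strand) encodes the calcium- and calmodulin-dependent phosphodiesterase that is the main PDE1 of cardiomyocytes. It had 2619.1, 2495.5 and 2197.6 normalized counts in the KO hearts and 2447.3, 2094.6 and 2498.5 in the WT hearts. The groups overlapped throughout, and the log2 fold change was 0.055 (standard error 0.093). Pde5a (ENSMUSG00000053965, chr3:122728947-122859374, plus strand), the only cGMP-specific enzyme of the 10 and the target of sildenafil, was the least abundant in reads, with 263.0, 298.8 and 314.8 normalized counts in the KO hearts and 281.7, 325.4 and 305.2 in the WT hearts. Its values overlapped as well, with a log2 fold change of -0.059 (standard error 0.11), or 0.961 times, and a counting error of 5.78% at its mean reads. Smooth muscle, which is known for Pde5a, was represented by 7 of 7 markers, none at 0, with summed normalized counts from 29058 to 33489 in KO and from 24269 to 36867 in WT. Of these markers, Myocd was higher in all KO hearts (log2 fold change 0.44), and the others overlapped. The part of smooth muscle in the Pde5a values was not tested.

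Over the 10 members, the log2 fold change was above 0 for 8 and below 0 for 2, with a median of 0.26, where the median of all 16016 genes tested was -0.0043. Without KO replicate 2, the median was 0.31. All KO values lay above all WT values for 4 of 10, against 15.6% of all genes, and below them for 0 of 10, against 14.6% of all genes. By limma with Benjamini-Hochberg adjustment, 0 of 10 members and 0% of all genes passed an adjusted p of 0.05, and by the quasi-likelihood test of edgeR these were also 0 of 10 and 0%. An unadjusted limma p under 0.05 was found for 4 of 10 members, all higher in KO, against 23.5% of all genes in either direction and 13.0% higher in KO. The Wald test of DESeq2 called 4 of 10, all higher in KO, against 13.2% of the genes it tested in either direction and 8.22% higher in KO. After correction for transcript length and GC content, DESeq2 called 0 of 10, against 2.38% of the genes it tested. As the members were chosen with this contrast known, nothing is read from these counts.

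**Figure D2:**
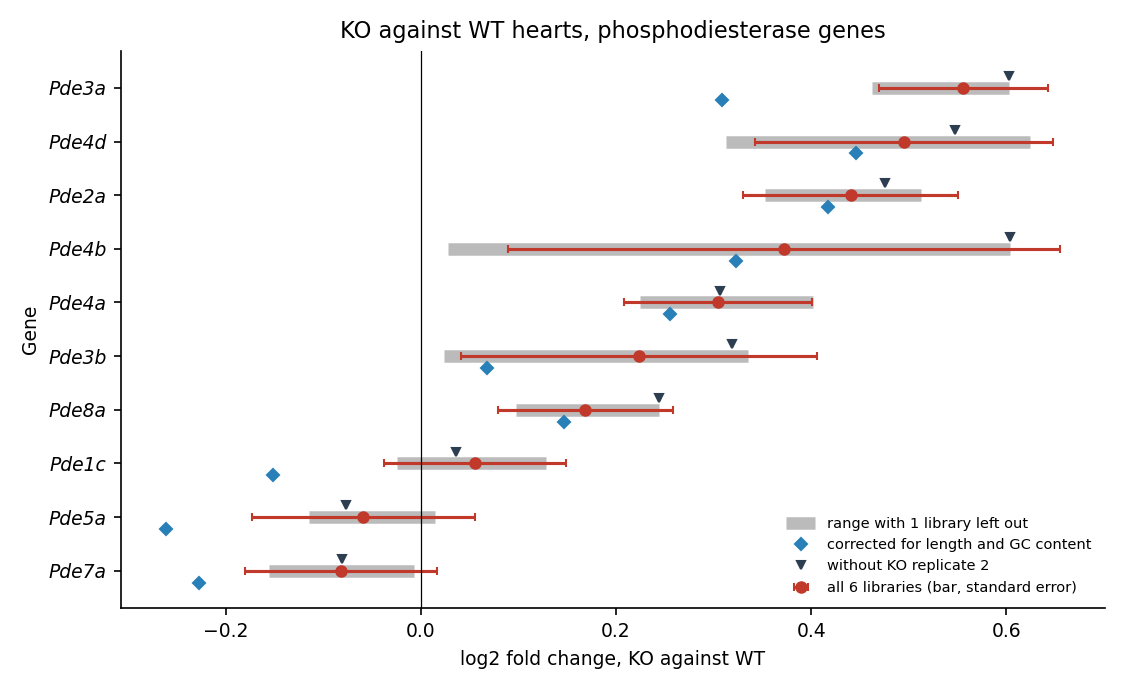
Log2 fold change of each phosphodiesterase gene, KO against WT, with its standard error (red, all 6 libraries), the range when each library is left out in turn (grey), the value without KO replicate 2 (dark triangles) and the value corrected for transcript length and GC content (blue diamonds). Pde3a moves from 0.56 to 0.31 with the correction, Pde4b has the widest grey range, 0.028 to 0.60, and Pde1c, Pde5a and Pde7a lie near 0 before the correction.

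KO replicate 1 held the highest value of 7 of the 10 genes (Pde1c, Pde2a, Pde3a, Pde4a, Pde4b, Pde4d and Pde8a). It was at rank 2 of 6 for Pde7a and rank 4 of 6 for Pde3b, and it held the lowest value of Pde5a. The median difference of the 10 members from the WT mean was 0.36, 0.064 and 0.20 on the log2 scale in KO replicates 1, 2 and 3, and between -0.002 and 0.061 in the WT libraries. The same median over all genes lay between -0.011 and 0.008 in every library. By this median of the members, KO replicate 2, in which Slc4a4 was not low, was nearest to WT among the KO libraries. This did not hold gene by gene. Its Pde2a, Pde3a, Pde4a and Pde4d values were above all WT values, and KO replicate 3 was nearer to WT for Pde4a and Pde4d. A relation to the Slc4a4 level was not tested. With KO replicate 1 left out, the log2 fold changes of Pde2a, Pde3a and Pde4a were 0.38, 0.46 and 0.26.

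Transcript length moved with the differences across the whole table. Across 15978 genes, each of which is no replicate of another, Spearman's rho between the log2 fold change and longest transcript length was 0.454, so that longer transcripts were on the whole higher in the KO libraries. The longest transcripts of the 10 members had a median of 5476 nucleotides, against 3188 for all genes, and that of Pde3a, at 12302 nucleotides, was the longest of the 10. After a correction for length and GC content (rho = 0.0279 afterwards), the log2 fold change was 0.31 for Pde3a, 0.42 for Pde2a, 0.45 for Pde4d, 0.26 for Pde4a and 0.32 for Pde4b. It was 0.068 for Pde3b and 0.15 for Pde8a. Pde1c, Pde5a and Pde7a were then at -0.15, -0.26 and -0.23, so that the sign for Pde1c changed. The median of the members was 0.20 after the correction, with 7 of 10 above 0.

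Levels of different genes can be compared only per length, so the reads were also expressed as RPKM, for which they are divided by the length of all exons of the gene joined together and by the total of the library. On this RPKM scale, Pde4a was the highest, with a mean level over the 6 libraries of 9.43 ± 1.06 (SD), followed by Pde3a with 6.68 ± 1.26. Pde8a (4.89 ± 0.296) and Pde4b (4.66 ± 1.57) came next and did not differ beyond their spread, since Pde8a was the higher of the pair in 4 of 6 libraries. Pde1c followed at 2.70 ± 0.197. Pde7a (2.23 ± 0.182), Pde2a (1.89 ± 0.286) and Pde4d (1.73 ± 0.368) formed a group with overlapping ranges, in which Pde7a was above Pde2a in 5 of 6 libraries and Pde2a above Pde4d in 4 of 6. This order is that of the mean over both genotypes, and it differed between them for the close pairs. Pde2a and Pde7a were at 2.13 and 2.11 in KO but at 1.66 and 2.35 in WT, and Pde4b and Pde8a were at 5.20 and 5.05 in KO but at 4.11 and 4.72 in WT. Pde3b (1.12 ± 0.254) and Pde5a (0.690 ± 0.0746) had the lowest levels, in that order in all 6 libraries.

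The order depended on which length was used for genes with many start sites. Pde4d has 12 annotated coding starts, Pde1c 9 and Pde4b 9, whereas Pde3a, Pde3b and Pde8a have 1 each. With the length of the longest transcript, the order of mean RPKM levels was Pde4a (15.5), Pde4b (11.4), Pde3a (6.92), Pde1c (6.19), Pde8a (5.20), Pde4d (4.94), Pde2a (2.76), Pde7a (2.75), Pde3b (1.55) and Pde5a (0.893), and 4 of 10 genes kept their rank. Pde4a was the highest and Pde3b and Pde5a were the lowest on either scale. Gene-level counts do not say which start or isoform was used.

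**Figure D3:**
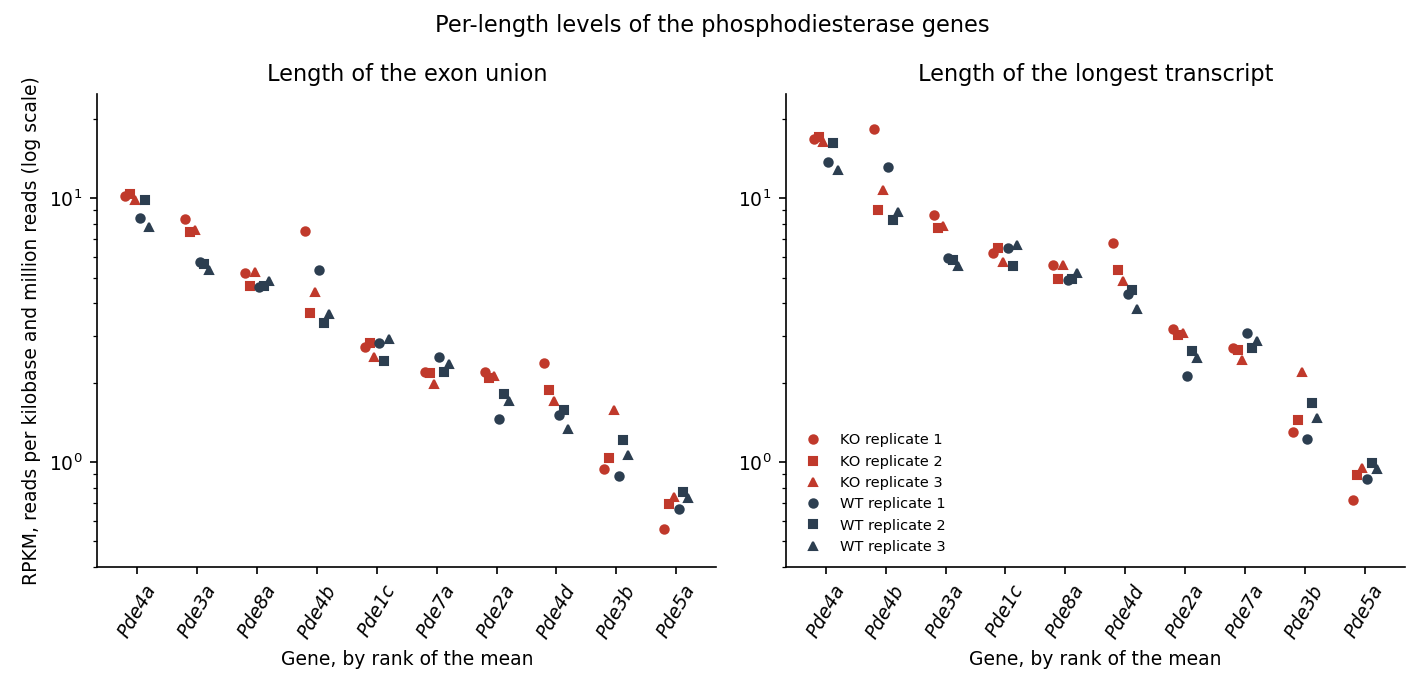
Level of each phosphodiesterase gene in RPKM (log scale) in the 6 libraries, with genes ordered by their mean, using the joined exon length (left) and the longest transcript (right). Pde4a leads and Pde3b and Pde5a come last in both panels, whereas Pde4b, Pde4d and Pde1c rank higher in the right panel.

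The summed per-length level of the 10 genes was 42.3, 36.9 and 37.8 RPKM in the KO hearts and 34.0, 33.5 and 31.7 in the WT hearts. Each KO heart was above each WT heart in this sum. The members were chosen with their differences already known, so this restates those differences and adds no evidence. The sum is also not corrected for the trend with length and GC content. Within it, the cAMP-specific genes made up 62.8 ± 2.03% in KO and 64.5 ± 1.48% in WT (SD, n = 3 each), the genes for enzymes of both messengers 35.5 ± 1.68% and 33.3 ± 1.32%, and Pde5a 1.71 ± 0.344% and 2.18 ± 0.192%. The ranges of the first 2 classes overlapped between the genotypes, and those of Pde5a only just did not (highest KO 1.95%, lowest WT 1.96%), whereas with the longest transcript as the length they overlapped (1.59% and 1.54%). Pde3a alone took 19.7%, 20.3% and 20.1% in the KO hearts and 16.9%, 16.8% and 16.8% in the WT hearts, so its share differed between genotypes and hardly varied within them. These shares are not corrected for the trend with length and GC content. With that correction, the log2 fold change of Pde3a went from 0.56 to 0.31, whereas that of Pde4a went from 0.30 to 0.26. How much of the difference in share would remain was not tested. The PDE4 genes together took 44.4 ± 2.78% in KO and 43.1 ± 2.55% in WT, with overlapping ranges. Shares of one sum are not independent of each other, and with the longest transcript as the length the Pde3a share was 12.9 ± 0.519% in KO and 10.8 ± 0.170% in WT.

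Ratios within a library do not depend on how libraries are scaled. The ratio of Pde3a to Pde1c reads was 1.95, 1.68 and 1.91 in the KO hearts and 1.29, 1.48 and 1.16 in the WT hearts, without overlap. The ratio of Pde2a to Pde5a reads, an enzyme that cGMP activates against a cGMP-specific one, was 2.46, 1.89 and 1.80 in KO and 1.37, 1.48 and 1.46 in WT, again without overlap. By contrast, the ratio of Pde3a to Pde3b reads overlapped, with 9.70 ± 2.86 in KO and 7.55 ± 1.36 in WT (SD, n = 3 each). Pde4b against Pde4a overlapped as well (1.02, 0.489 and 0.614 in KO, 0.877, 0.471 and 0.641 in WT), with both replicate 1 libraries the highest. Pde4d against Pde4a also overlapped, with 0.366, 0.283 and 0.271 in KO and 0.282, 0.25 and 0.268 in WT. A ratio shows unequal change, not which gene of the pair changed. The pairs were formed from members whose differences were already known, so a lack of overlap restates those differences and adds no evidence.

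Of 14 further phosphodiesterase genes, 8 were measured, and 0 of 8 passed the threshold by limma with Benjamini-Hochberg adjustment or by edgeR. An unadjusted limma p under 0.05 was found for 1 of 8, against 23.5% of all genes. DESeq2 called the same 1 of 8, against 13.2% of the genes it tested. That gene was Pde7b, the paralog of Pde7a, with 1217.7, 1437.9 and 1234.5 normalized counts in KO and 958.9, 916.8 and 1184.8 in WT (log2 fold change 0.35, standard error 0.11, limma adjusted p = 0.119, DESeq2 adjusted p = 0.045, and 0.266 with the length and GC correction). All KO hearts were above all WT hearts for Pde7b, where those of Pde7a overlapped. Pde8b, the paralog of Pde8a, was also higher in all KO hearts (log2 fold change 0.22, standard error 0.11, limma adjusted p = 0.269), and Pde6d, which serves as a carrier of prenylated proteins rather than as an enzyme, was lower in all of them (-0.15, standard error 0.077, limma adjusted p = 0.285). The values overlapped for Pde1a (0.21), Pde10a (0.10), Pde9a (-0.067), Pde1b (-0.096) and Pde4c (-0.15), with limma adjusted p-values from 0.32 to 0.805. The median log2 fold change of the 8 was 0.018. The photoreceptor genes Pde6a, Pde6b, Pde6c, Pde6g and Pde6h, as well as Pde11a, were not analysed here.

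The anchoring proteins that place phosphodiesterases and protein kinase A in complexes were measured for 19 of 22 genes. By limma with Benjamini-Hochberg adjustment and by edgeR, 0 of 19 passed the threshold, 8 had an unadjusted limma p under 0.05 and were higher in KO and 3 lower, and DESeq2 called 6 higher and 1 lower. Of all genes, 23.5% had an unadjusted p under 0.05 (13.0% higher in KO). Of the genes that DESeq2 tested, it called 13.2% (8.22% higher in KO). Pde4dip, which encodes the PDE4D-binding protein myomegalin, had 128252.4, 99154.1 and 98768.0 normalized counts in KO and 82580.9, 87147.7 and 77485.6 in WT, so that it and Pde4d were both higher in all KO hearts (log2 fold change 0.39, standard error 0.12, limma adjusted p = 0.112, DESeq2 adjusted p = 0.00593). Akap13 (log2 fold change 0.54), Akap12 (0.42), which encodes the scaffold gravin, and the adaptor gene Gab1 (0.36) each had a limma adjusted p of 0.0815, and DESeq2 adjusted p-values of 6.5e-05, 0.00147 and 0.00102. With the length and GC correction, DESeq2 called 0 of 19, and the median log2 fold change of the list went from 0.22 to 0.044. The gene that DESeq2 called lower was Arrb2, the arrestin that brings PDE4 to beta-adrenergic receptors (log2 fold change -0.42, standard error 0.14, limma adjusted p = 0.127, DESeq2 adjusted p = 0.0486); it was named after its values were seen.

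Protein kinase A, the main target of cAMP, was measured with 9 of 9 subunits and inhibitors, of which limma and edgeR called 0. Of the 9, 4 had an unadjusted limma p under 0.05 and were higher in KO and 1 lower (against 23.5% of all genes in either direction). DESeq2 called 2 higher, against 8.22% of the genes it tested. Both calls were lost with the length and GC correction. For Prkar2a, the RII alpha regulatory subunit, the log2 fold change was 0.33 (standard error 0.077, limma adjusted p = 0.0826, DESeq2 adjusted p = 0.00579, and 0.143 with the correction). The inhibitor Pkia was at 0.28 (limma adjusted p = 0.118, DESeq2 adjusted p = 0.0403, and 0.0958 with the correction), the inhibitor Pkig at -0.21 (limma adjusted p = 0.147) and the catalytic subunit Prkacb at 0.21 (limma adjusted p = 0.204). These genes, named for a low unadjusted p, each separated KO from WT hearts, Pkig with the KO hearts lower. In the list, all KO values lay above all WT values for 4 of 9 and below them for 1 of 9. The shares of all genes were 15.6% and 14.6%. The list's median was 0.16.

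Of the genes that make cAMP, 9 of 10 adenylyl cyclases were measured, and limma and edgeR called 0. Of these, 1 had an unadjusted limma p under 0.05 and was higher in KO, against 13.0% of all genes. DESeq2 called the same gene higher, against 8.22% of the genes it tested. This was Adcy9, with 1717.9, 1269.4 and 1245.1 normalized counts in KO and 839.0, 905.4 and 816.7 in WT (log2 fold change 0.71, standard error 0.12, limma adjusted p = 0.0815, DESeq2 adjusted p = 6.1e-05, and 0.00124 with the length and GC correction). The main cardiac cyclases Adcy5 and Adcy6 overlapped between the genotypes, at 0.22 (limma adjusted p = 0.236) and 0.16 (limma adjusted p = 0.235), and so did the scarcely read Adcy8 (0.30, limma adjusted p = 0.614). Among 10 of 10 other cAMP effectors and exporters, limma and edgeR called 0, and 3 had an unadjusted limma p under 0.05 and were higher in KO. Against the same shares, DESeq2 called 1 higher. That was Hcn4, the cAMP-gated pacemaker channel (log2 fold change 0.69, standard error 0.19, limma adjusted p = 0.0921, DESeq2 adjusted p = 0.00302, and 0.0379 with the length and GC correction). The cAMP-binding protein gene Bves (0.18), the exporter gene Abcc4 (0.31) and Rapgef4, which encodes Epac2 (0.22), had limma adjusted p-values of 0.158, 0.175 and 0.222.

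For the synthesis and targets of cGMP, 13 genes were measured, of which limma and edgeR called 0. Of the 13, 2 had an unadjusted limma p under 0.05 and were higher in KO (against 13.0% of all genes). DESeq2 called 1 higher, against 8.22% of the genes it tested. That gene was Prkg1, the cGMP-dependent kinase, with 524.0, 517.9 and 407.1 normalized counts in KO and 305.3, 395.0 and 343.4 in WT (log2 fold change 0.47, standard error 0.14, limma adjusted p = 0.103, DESeq2 adjusted p = 0.0281, and 0.311 with the length and GC correction). It was thus higher in all KO hearts, as was Pde2a, whereas Pde5a was not. The channel genes Cngb1 (0.50) and Cnga3 (0.45) and the natriuretic peptide clearance receptor gene Npr3 (0.42) had limma adjusted p-values of 0.173, 0.233 and 0.292. Of 14 of 14 genes of cAMP-responsive transcription, limma and edgeR called 0, and 4 had an unadjusted limma p under 0.05 and were higher in KO. Against the same shares, DESeq2 called 1 higher, the coactivator Ep300 (log2 fold change 0.49, standard error 0.13, limma adjusted p = 0.087, DESeq2 adjusted p = 0.0042, and 0.251 with the length and GC correction). The coactivators Crebbp (0.25), Ppargc1a (0.32) and Crtc1 (0.20) had limma adjusted p-values of 0.152, 0.192 and 0.208. Sik1, Per1 and Nr4a1, named after their values were seen, overlapped between the genotypes and were highest in KO replicate 1. They had 4433.3, 3769.3 and 2327.3 normalized counts there. The next highest values were 1432.1 and 1560.2 in WT replicate 1 and 971.3 in WT replicate 3. The list's median log2 fold change was 0.23, and 0.11 with the length and GC correction, beside 0.26 and 0.20 for the 10 phosphodiesterases.

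**Figure D4:**
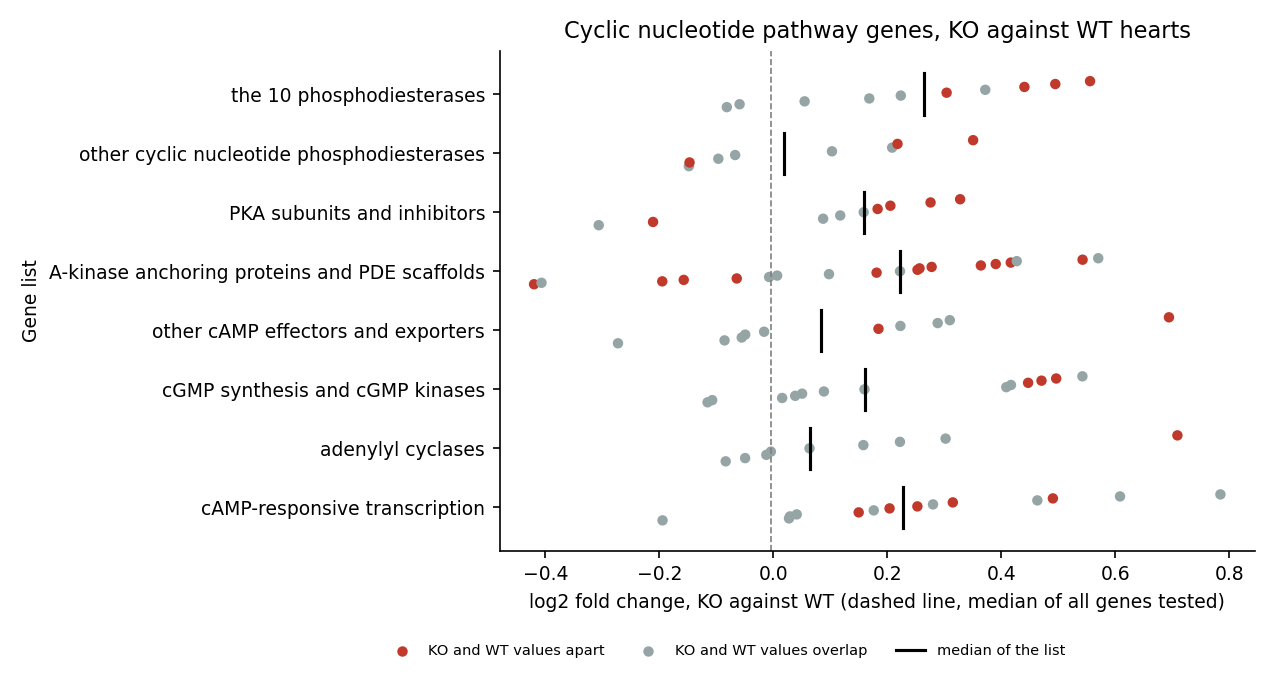
Log2 fold change, KO against WT, of each measured gene in the 10 phosphodiesterases and in 7 lists of the cyclic nucleotide pathway, in red where KO and WT values do not overlap and in grey where they do, with the median of each list (black line) and of all genes tested (dashed line). The members' median is 0.26, that of the other phosphodiesterases is 0.018, and the highest points of the effector and cyclase lists are Hcn4 (0.69) and Adcy9 (0.71).

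The heart label was borne out by its markers. All 8 cardiomyocyte markers were measured, with summed normalized counts from 2611286 to 2899579 in KO and from 2277872 to 2408949 in WT, none was at 0 in any library, and the median log2 fold change over the list was 0.028. The sum was higher in each KO heart, but the markers were not all on one side. The sum was carried by the myosin heavy chain gene Myh6, with means of 1159410 normalized counts in KO and 792350 in WT, which was higher in all KO hearts along with Actn2 and Ryr2, whereas Tnni3, Myl2 and Myl3 were lower in all of them and Tnnt2 and Actc1 overlapped. With the length and GC correction, the log2 fold changes of Tnni3, Myl2 and Myl3 were 0.058, -0.011 and -0.074. Those of Myh6, Actn2 and Ryr2 were then 0.42, 0.42 and 0.32. The part of the share of cardiomyocytes in the phosphodiesterase values was not tested. Markers of other cells overlapped between the genotypes in their summed normalized counts, none at 0 in any library. These ranged from 83772 to 99994 in KO and from 86000 to 91524 in WT for 7 of 7 fibroblast markers, and from 7626 to 8710 and from 8587 to 9234 for 7 of 7 macrophage markers. They ranged from 625 to 970 and from 607 to 1304 for 8 of 9 lymphocyte markers, and from 696 to 1151 and from 978 to 1344 for 5 of 7 markers of Schwann cells and neurons. These sums also hide single markers. The fibroblast marker Pdgfra (log2 fold change 0.49) was higher in all KO hearts. The macrophage markers C1qa (-0.35) and C1qb (-0.39) and the neuron marker Uchl1 (-0.46) were lower in all of them. The other markers of these lists overlapped. Of all genes, 15.6% were higher and 14.6% lower in all KO hearts.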

How the data were processed

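Total RNA from hearts was sequenced on an Illumina HiSeq with paired reads. The submitters' processing notes name Trimmomatic 0.36, STAR 2.5.2b, featureCounts of Subread 1.5.2, DESeq2 and GRCm38; the annotation and the treatment of strand are not given in the sources used here, so reads of overlapping or antisense genes cannot be told apart. The authors deposited a signal per gene, the normalized count, that is, reads divided by a size factor per library. The deposited values were whole multiples of 1 read (tolerance 0.01) in 100% of cases in all 6 libraries, and the reads were recovered from them. The lowest mean in the table was 9.89.

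Genotype and replicate number came from the sample labels. log2(normalized count + 1) was compared with limma 3.58.1 (R 4.3.3), two-sided, over the 16016 genes of mean 10 or more, with Benjamini-Hochberg adjustment and a trended variance. Fold changes are on this scale, which understates those of low genes. Symbols, positions and lengths came from GENCODE M21 (GRCm38), promoters from RefSeq (GRCm38.p6). The recovered reads were also tested with edgeR 4.0.16 and with DESeq2 1.42.0. The DESeq2 shares are of the genes with an adjusted p, 11979 without and 14428 with the length and GC correction. Some genes of the lists with few reads, such as Cnga3 and Cngb1, had none without the correction but are kept in the list sizes. Further alternatives were pseudocounts of 0.5 or 5, a minimum mean of 50 or none, rescaled totals, quantile normalization, no variance trend, a replicate block, each library left out, and a correction of each library for transcript length and GC content with splines of 5 degrees of freedom. RPKM levels of the members were computed here from the recovered reads. Counting error is the square root of a gene's mean reads over the 6 libraries, as a percent of that mean, and covers counting only. The procedures were tested on simulated counts.

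The members, the pathway and marker lists and the named genes were chosen with earlier results of these data known. Named genes are all members, Slc4a4, the other phosphodiesterases measured and, in each list, those past the threshold or up to 4 with the lowest unadjusted p. Arrb2, Sik1, Per1 and Nr4a1 were named after their values were seen.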

Additional observations from a re-analysis of the deposited data

How the results depend on the processing

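The number of genes called was 0 with limma and edgeR, 1587 with DESeq2, 1405 without its independent filtering and 343 with its length and GC correction, and 0 to 3 with each library left out, the 3 without KO replicate 2. For the 10 members these counts were 4 with DESeq2, 3 without independent filtering and 0 with the correction. For the pathway genes, in lists of 8, 9, 19, 10, 13, 9 and 14, they were 14, 10 and 2. Beside these, DESeq2 called 13.2% of the genes it tested, and 2.38% with the correction. Without independent filtering it called 1405 of 16016. The median log2 fold change of the members lay between 0.18 and 0.31 with each library left out, and was 0.19 after rescaling to the same total, where all genes had a median of -0.077. Slc4a4 ranged from -1.51 to -0.59 with each library left out, and its limma adjusted p was 0.0121 without KO replicate 2. With the longest transcript as the length, 4 of 10 members kept their rank, and the cAMP-specific, both-messenger and cGMP-specific genes took 68.4%, 30.1% and 1.56% of the summed level. With the length and GC correction, the log2 fold change changed sign, by limma and by DESeq2, for Pde6d (0.002 by both), Pde10a (-0.107 and -0.104), Pde9a (0.021 and 0.022) and Crtc1 (-0.017 by both), and so did Pde9a (0.046) and Pde1b (0.081) without KO replicate 1; with each library left out in turn, their lowest values were -0.139 and -0.202. Among the members, Pde1c was at -0.15 with the correction and at -0.018 after rescaling, and Pde5a was 0.015 without KO replicate 1. The cause was not tested. With the replicate block, limma called 0 genes. Deviations of same-numbered libraries correlated at 0.227, 0.072 and -0.029, and those of differently numbered libraries at -0.183 to 0.155. The value for the replicate 1 libraries was thus the highest. Whether same-numbered libraries shared a batch is not given by the labels and was not tested. Counting error, taken at each gene's mean reads over the 6 libraries, was at most 5.78% for the members, and the precision of their differences rests on 3 hearts per genotype.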
